A study of Oryza sativa with 72 samples.

Results

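Recovery from drought was followed in leaves of IR64, a widely grown indica cultivar of rice, between 2 h and 3 days after water was returned. The 12 libraries compared are those of drought-treated plants at day 3 and at 2 h of rehydration, 3 per stage in each of 2 leaf positions, out of 72 libraries in the series. The 12 control libraries of the same stages and leaf positions served as background. All 55986 rows of the raw count table entered, each row holding the reads counted for 1 annotated feature.

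All plants were IR64 grown singly in pots of calcined clay in a growth chamber. Drought-treated plants lost irrigation at 14 days after sowing, with the pots raised so that they drained faster, and after 9 days the water was returned for 6 days. Treated plants were sampled at day 3 and at 2 h of that period, and control plants, which were irrigated throughout, at the same stages. At each stage the youngest fully expanded leaf (the latest leaf) and the next older one (the second latest leaf) were frozen, and their poly(A) RNA was sequenced with a directional kit. A leaf position is defined at the time of sampling, so the latest leaf at day 3 need not be the leaf that was latest at 2 h. Whether replicates were separate plants is not stated, so a p-value here sets a change against the spread between libraries, part of which may be technical. The hour of day of each sampling is not given in the sources used here.

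Leaves short of water are known to accumulate abscisic acid, to close their stomata, and to fill with transcripts for protective proteins such as dehydrins and other late embryogenesis abundant proteins, while transcripts for photosynthesis and growth decline. When water returns, leaf cells regain turgor within hours, and transcript levels move back toward those of watered leaves over the following days. An early sample taken soon after watering can also hold transcripts that answer to the watering itself. The count table carries no gene identifiers, so no such role can be given to any row here, and rows are called by their place in the table (row 3736 is the row at place 3736). In leaf tissue, fewer cells of a type and less RNA per cell cannot be told apart.

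Total counts ran from 12009799 to 22292210 in the 12 treated libraries and from 6370914 to 23026735 in the 12 controls. Between 23964 and 28607 rows had a count in a library, and the 10 most abundant rows took 7.02% to 13.6% of the counts. Levels are given as counts scaled to a common library total (CPM), normalised by trimmed mean of M values within a leaf position. A total of 3 counts, the limit that a count of 0 allows, equals 0.120 to 0.464 CPM on that scale, which covers counting error only. Treated 2 h libraries stood apart from the other groups. On the first principal component of the 12 libraries of the latest leaf, with 30.7% of the variance, they scored 67.9, 51.9 and 31.6, and the other 9 libraries scored -38.1 to 6.8. For the second latest leaf, where that component held 30.9%, they scored 63.5, 57.1 and 53.6. Treated day 3 replicate 2 scored 24.8 there, between them and the other 8 libraries at -43.3 to -1.3. The same replicate number stood at the end of the second component in the latest leaf, at 56 against 26.4 or less elsewhere.

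Among latest leaves, 924 rows rose and 1549 rows fell in treated plants at day 3 relative to 2 h. Together these were 2473 of 19588 rows tested, a called share of 12.6%, with 4.72% higher and 7.91% lower at day 3 (edgeR quasi-likelihood test, Benjamini-Hochberg adjusted p under 0.05). The rows that rose had a median log2 fold change of 0.72, and the rows that fell had a median of -0.87. At least a 2-fold change was fitted for 269 of the risers and 616 of the fallers, and at least a 4-fold change for 63 and 69. Falls were more numerous than rises, also among changes of at least 2-fold. Without 1 library the count of 2473 became 1429 (treated day 3 replicate 1), 1266 (treated 2 h replicate 1) or 1140 (treated 2 h replicate 2).

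The second latest leaf had nearly the same balance. There, 854 rows rose and 1507 rows fell, together 2361 of 20458 tested, a called share of 11.5% with 4.17% higher and 7.37% lower at day 3 (edgeR adjusted p under 0.05). The median log2 fold change was 0.90 among the risers and -0.93 among the fallers. At least a 2-fold change was fitted for 353 risers and 655 fallers, and at least a 4-fold change for 75 and 79. Each of the 6 treated libraries moved this count by over 1.5 times when it was left out. The count became 4189 without day 3 replicate 2, the library that lay toward the 2 h samples, and 1323 and 1062 without day 3 replicates 1 and 3. It became 1006, 1190 and 1362 without 2 h replicates 1, 2 and 3.

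Between the same stages, irrigated plants had fewer rows past each limit than treated plants. An unadjusted p under 0.05, or no overlap of 3 and 3 libraries, also arises by chance. Such counts are therefore not counts of rows shown to change. Among 19588 rows of the latest leaf edgeR called 0 rows between day 3 and 2 h controls, with 802 rows at an unadjusted p under 0.05 and 7 rows called by DESeq2; the treated comparison had 5501 rows at that unadjusted limit. A fitted change of at least 2-fold in either direction, called or not, was present in 1678 rows (8.57%) of treated plants and in 441 rows (2.25%) of controls. The 3 day 3 libraries did not overlap the 3 libraries of 2 h in 6207 rows (31.7%; 13.8% higher and 17.9% lower at day 3) of treated plants and in 1870 rows (9.55%; 5.15% and 4.4%) of controls.

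Among 20458 rows of the second latest leaf edgeR also called 0 in controls, with 1702 at an unadjusted p under 0.05 and 281 called by DESeq2, against 5603 rows at that unadjusted limit in treated plants. This 0 depended on the libraries in the fit. Without control day 3 replicate 2, edgeR called 506 rows, and a fit of all 36 libraries of the leaf position called 332, of which 309 were higher at day 3. Of the 332, 23 were also called in treated plants in the same direction and 7 in the opposite one. The 309 had a median log2 fold change of 0.24 in treated plants and of 2.16 in the controls that chose them. A change of at least 2-fold was fitted for 2081 rows (10.2%) in treated plants and 1071 rows (5.24%) in controls, and groups did not overlap in 6255 rows (30.6%; 14.1% higher and 16.5% lower at day 3) of treated plants and 2897 rows (14.2%; 7.31% and 6.85%) of controls.

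**Figure D1:**
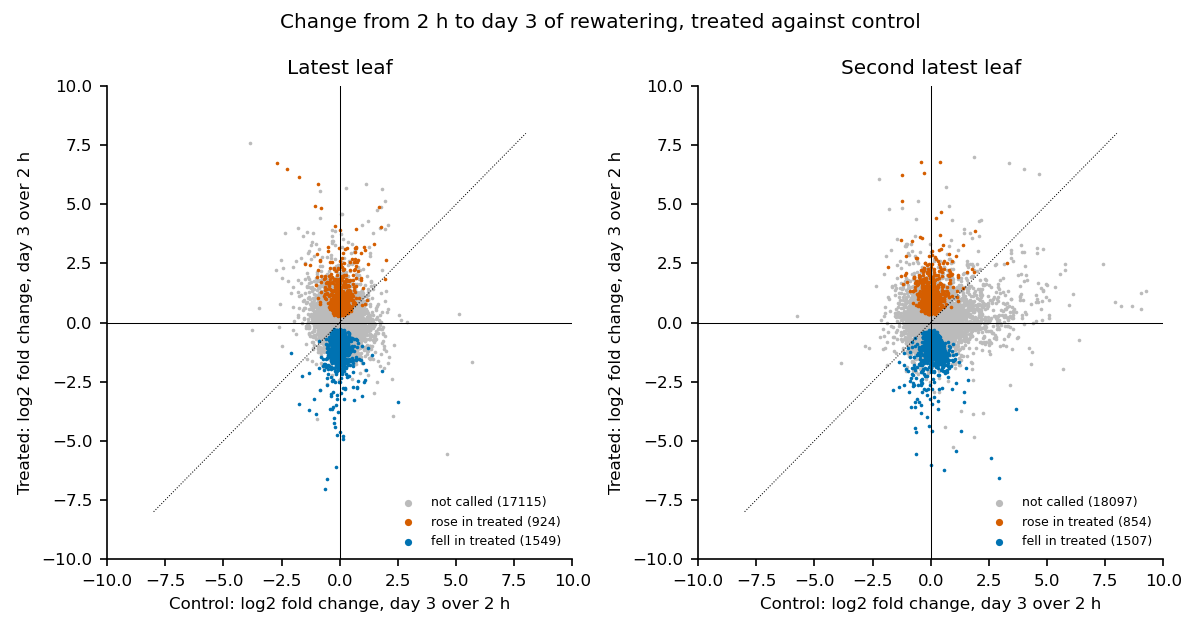
Fitted log2 fold change of every tested row between day 3 and 2 h, in treated plants (vertical axis) and in controls (horizontal axis), for each leaf position, with rows that rose or fell in treated plants in colour. Coloured rows spread along the vertical axis with median changes of 0.72 and -0.87 in the latest leaf and 0.90 and -0.93 in the second latest leaf, and lie close to 0 along the control axis.

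The rows called in treated plants were close to flat in controls, as were most tested rows. Control libraries took no part in that contrast's means, but they entered its filter, scaling and dispersion. The 924 risers of the latest leaf had a median control change of -0.01 on the log2 scale, and 90.6% lay within 0.5 of 0; the 1549 fallers had a median of -0.04, and 95.6% lay within 0.5. Over all tested rows of that leaf 89.2% lay within 0.5. Risers of the second latest leaf had a median control change of -0.07 with 89.2% within 0.5, and the fallers a median of 0.12 with 89.0% within 0.5, beside 84.1% of all rows tested. The control change had the sign of the treated one in 46.8% of risers in the latest leaf and 38.1% in the second latest leaf. Of all tested rows, 49.6% and 52.0% had a positive control change. For fallers the shares with the treated sign were 61.5% and 26.1%. Their background is the rest of the tested rows, those without a positive control change. The control change reached 50% or more of the treated change in 3.79% of risers and 1.94% of fallers in the latest leaf. In the second latest leaf it did so in 4.10% and 1.66%, beside 51.3% and 50.3% of all tested rows of the 2 leaf positions. Rows called for a large treated change have a small ratio by choice, so nothing is read from these last shares.

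The difference between the treated and the control change was tested itself, as an interaction contrast. For the latest leaf it was called in 650 of 19588 rows (3.32%; edgeR adjusted p under 0.05), of which 169 (0.863%) changed upward in treated relative to control plants (median log2 difference 1.12) and 481 (2.46%) downward (median -1.22). Of the risers, 164 (17.7%) were among the 169, and of the fallers, 464 (30.0%) were among the 481. Most rows called in treated plants therefore did not pass the test of the difference itself. The 650 became 1369 by DESeq2, 1107 with no filter on low counts, and 1424 when all libraries of the leaf position but a near-empty one of drought day 9 (1755 counts) were fitted. It became 26 without treated day 3 replicate 1, 41 and 26 without treated 2 h replicates 1 and 2, 76 and 14 without control day 3 replicates 1 and 2, and 55, 23 and 33 without control 2 h replicates 1, 2 and 3.

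For the second latest leaf the difference was called in 1052 of 20458 rows (5.14%; edgeR adjusted p under 0.05), 293 (1.43%) upward (median 1.21) and 759 (3.71%) downward (median -1.37). These held 266 (31.1%) of the risers and 715 (47.4%) of the fallers. The count was 2199 by DESeq2, 1681 with no filter on low counts and 2980 when all libraries of the leaf position were fitted. It was 395, 3228 and 345 without treated day 3 replicates 1, 2 and 3, and 146, 334 and 424 without treated 2 h replicates 1, 2 and 3. The count was 397 without control day 3 replicate 3, and 246, 128 and 230 without control 2 h replicates 1, 2 and 3. The size of this list thus rests on single libraries in both leaf positions, as the plot of counts without each library shows.

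**Figure D2:**
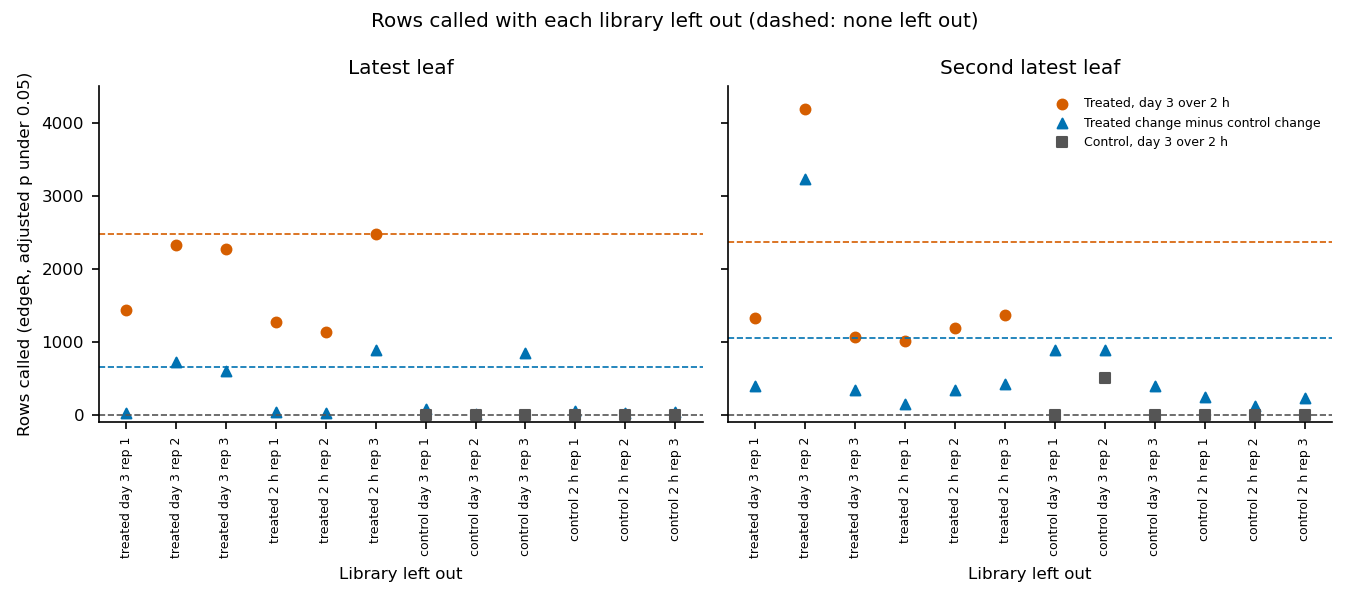
Number of rows called (edgeR adjusted p under 0.05, vertical axis) for each contrast and leaf position when the library on the horizontal axis is left out, with the count of all libraries dashed. The treated counts run from 1140 to 2477 in the latest leaf and from 1006 to 4189 in the second latest leaf, and the counts for the difference between treated and control changes from 14 to 888 and from 128 to 3228.

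Summed over rows, the fallers took a share of counts at treated 2 h that stood above that of every other group. The 1549 fallers of the latest leaf took 4.84% ± 0.427 of counts in treated leaves at day 3 and 11.2% ± 1.76 at 2 h, against 5.49% ± 0.742 and 5.67% ± 0.404 in controls (SD, n = 3 each). By library the treated shares were 4.68%, 4.52% and 5.33% at day 3 and 12.7%, 11.7% and 9.28% at 2 h. The 1507 fallers of the second latest leaf took 5.84% ± 0.632 at day 3 and 12.9% ± 0.676 at 2 h in treated leaves, against 6.76% ± 1.14 and 6.19% ± 0.353 in controls (SD, n = 3 each). The direction of the treated gap follows from how the rows were chosen, so these shares give size only. The control shares stayed within their spread of each other. Control libraries took no part in the means of the treated contrast. They did enter its filter, scaling and dispersion, and so helped decide which rows were called.

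The risers were the mirror image. For the latest leaf they took 9.13% ± 0.943 at day 3 and 5.72% ± 0.546 at 2 h in treated leaves, against 8.60% ± 0.608 and 8.74% ± 0.452 in controls (SD, n = 3 each). Those of the second latest leaf took 6.74% ± 1.40 and 3.39% ± 0.236 in treated leaves, against 6.10% ± 0.529 and 6.51% ± 0.449 in controls (SD, n = 3 each). The treated shares at day 3 lay near those of the controls, and the treated shares at 2 h lay apart from them.

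Row by row, the treated mean at day 3 lay inside the range of the 6 controls of both stages for 66.5% of risers and 84.1% of fallers in the latest leaf, against 8.33% and 1.87% at 2 h. The second latest leaf had shares of 77.3% and 85.7% at day 3, against 4.68% and 2.79% at 2 h. Over all tested rows they were 86.7% at day 3 and 62.6% at 2 h in the latest leaf, and 88.4% and 58.8% in the second latest leaf. Fitted treated over control, the risers of the latest leaf had a median log2 fold change of 0.17 at day 3 and -0.56 at 2 h, and the fallers of -0.11 and 0.72. Medians in the second latest leaf were 0.17 and -0.78 for risers and -0.14 and 0.90 for fallers. The treated libraries that chose the rows enter all of these values, which are a description and no further test. The risers kept a median slightly above controls at day 3 and the fallers one slightly below.

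Changed rows were more abundant than most. The median level was 28.7 CPM for risers and 27.1 CPM for fallers of the latest leaf, beside 12.5 CPM for all tested rows, and 20.4 and 33.5 CPM in the second latest leaf, beside 12.7 CPM. With the tested rows divided by mean level into 4 equal parts, lowest to highest, 1.80%, 6.39%, 10.9% and 12.6% of latest-leaf rows fell and 2.21%, 3.39%, 5.45% and 7.82% rose. The same parts of the second latest leaf had 1.54%, 4.75%, 10.2% and 13% of rows falling and 2.27%, 3.93%, 5.61% and 4.89% rising. Counting error is larger for low rows, and its part in this difference was not tested.

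The largest falls that were shared by both leaf positions began with row 3736. Its latest leaf levels were 15.2, 12.5 and 24.3 CPM in treated leaves at day 3 and 1445, 1527 and 564 CPM at 2 h, against 24.7, 19.7 and 19.3 CPM and 21.6, 23.5 and 25.3 CPM in controls. The 3 treated 2 h libraries lay far above the other 9, which overlapped each other. The log2 fold change was -6.09 (SE 0.41, edgeR adjusted p = 9.3e-05), and the treated minus control difference was -5.95 (SE 0.50, edgeR adjusted p = 0.00132). Second latest leaves of treated plants had 18.1, 21.8 and 12.6 CPM at day 3 and 1706, 1250.0 and 414 CPM at 2 h, against 12.5 to 34.2 CPM in the 6 controls. The fall there was -6.01 (SE 0.59, edgeR adjusted p = 0.000398). Not every named row called in treated plants was also called for the treated minus control difference. In the latest leaf rows 3919, 6001, 20184, 25567, 35812, 42712, 49075, 51820 and 55591 were not (edgeR adjusted p 0.069 to 0.266). In the second latest leaf rows 5382, 6001, 19306, 23872, 51820 and 55591 were not (edgeR adjusted p 0.0531 to 0.246).

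Row 1806 had a similar pattern at lower levels. Treated latest leaves had 3.26, 3.39 and 6.19 CPM at day 3 and 536, 542 and 181 CPM at 2 h, against 3.28 to 11.5 CPM in the 6 controls (change -6.62 ± 0.57 SE on the log2 scale, edgeR adjusted p = 0.000187). Treated second latest leaves had 8.96, 9.60 and 6.61 CPM at day 3 and 719, 411 and 193 CPM at 2 h (change -5.72 ± 0.88 SE on the log2 scale, edgeR adjusted p = 0.00334). There the day 3 controls did not keep together: they had 57.8, 2.97 and 46.2 CPM, against 8.42, 5.43 and 4.09 CPM in 2 h controls. In both leaf positions all treated 2 h libraries exceeded every other library.

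Row 23041 had the largest fall of the latest leaf, with treated levels of 15.1, 0.188 and 28.8 CPM at day 3 and 3009, 1908 and 796 CPM at 2 h (change -7.03 ± 1.22 SE on the log2 scale, edgeR adjusted p = 0.00349). The 0.188 CPM of day 3 replicate 2 rests on 3 counts. The 6 controls had 12.5 to 60.3 CPM. Second latest leaves had 169, 14.6 and 32.4 CPM at day 3 and 2135, 2219 and 858 CPM at 2 h in treated plants, against 26.3 to 122 CPM in controls (change -4.59 ± 0.92 SE on the log2 scale, edgeR adjusted p = 0.00959). Treated day 3 libraries thus differed widely among themselves, and none of them reached the lowest 2 h library.

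Row 37676 fell in both leaf positions beside nearly constant controls. Latest leaves had 5.82, 4.65 and 8.91 CPM at day 3 and 269, 169 and 41.9 CPM at 2 h in treated plants, against 5.15 to 8.75 CPM in controls (change -4.64 ± 0.56 SE on the log2 scale, edgeR adjusted p = 0.000997). Second latest leaves had 10.4, 10.1 and 8.09 CPM at day 3 and 301, 217 and 77.8 CPM at 2 h, against 7.14 to 10.3 CPM in controls (change -4.38 ± 0.41 SE on the log2 scale, edgeR adjusted p = 0.000349). In rows 3736, 1806, 23041 and 37676 alike, replicate 3 was the lowest of the treated 2 h libraries in both leaf positions.

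Row 27075 had 2.17, 4.46 and 6.02 CPM at day 3 and 149, 128 and 70.2 CPM at 2 h in treated latest leaves, against 2.69 to 7.71 CPM in controls (change -4.78 ± 0.46 SE on the log2 scale, edgeR adjusted p = 0.00033). In treated second latest leaves it had 3.85, 5.50 and 4.27 CPM at day 3 and 108, 129 and 58.2 CPM at 2 h (change -4.45 ± 0.39 SE on the log2 scale, edgeR adjusted p = 0.000209). The groups were again fully apart. Rows 28120, 20184 and 6001 fell as well, at lower levels. Their treated means in the latest leaf were 0.568, 1.25 and 1.04 CPM at day 3 and 15.6, 17.0 and 15.2 CPM at 2 h, and in the second latest leaf 0.982, 1.00 and 0.509 CPM at day 3 and 12.6, 24.8 and 24.3 CPM at 2 h. Controls of the latest leaf averaged under 2 CPM in all 3 rows at both stages. Those of row 28120 in the second latest leaf differed between stages, with 7.45, 0.642 and 2.63 CPM at day 3 and 0.241, 0.505 and 0.0459 CPM at 2 h, the last resting on 1 count (control change 3.69 on the log2 scale, edgeR adjusted p = 0.234). Row 6001 varied most at 2 h, with 59.3, 10.6 and 2.88 CPM in the second latest leaf (change -5.55 ± 0.98 SE on the log2 scale, edgeR adjusted p = 0.00546), and replicate 1 was the highest in both leaf positions.

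Among the fallers named as the most abundant, row 2185 had the largest fall. Latest leaves had 649.6, 255 and 800.2 CPM at day 3 and 7757, 7124 and 5208 CPM at 2 h in treated plants, against 844, 553 and 374 CPM and 564, 727 and 845 CPM in controls (change -3.56 ± 0.43 SE on the log2 scale, edgeR adjusted p = 0.000988). Second latest leaves had 813, 650.2 and 579.8 CPM at day 3 and 9048, 8509.5 and 6504 CPM at 2 h, against 404 to 1101 CPM in controls (change -3.56 ± 0.28 SE on the log2 scale, edgeR adjusted p = 0.000124). Day 3 levels overlapped those of controls in both leaf positions, and 2 h levels were several times above them.

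Row 6097 behaved likewise. It had 181, 141 and 229.6 CPM at day 3 and 2298, 1990.1 and 932 CPM at 2 h in treated latest leaves, against 151 to 237 CPM in controls (change -3.24 ± 0.33 SE on the log2 scale, edgeR adjusted p = 0.000397). Its second latest leaf levels were 250.4, 238 and 242 CPM at day 3 and 2670.5, 2450.2 and 1325 CPM at 2 h, against 221 to 308 CPM in controls (change -3.14 ± 0.25 SE on the log2 scale, edgeR adjusted p = 0.000124). The day 3 libraries of the second latest leaf lay close together, all inside the range of the controls.

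Smaller falls were found in the abundant rows 3919 and 23872. Row 3919 averaged 1027 ± 182 CPM at day 3 and 2410.2 ± 286 CPM at 2 h in treated latest leaves (SD, n = 3 each; change -1.23 ± 0.18 SE on the log2 scale, edgeR adjusted p = 0.00156), and fell by 1.54 on the log2 scale in the second latest leaf (SE 0.16, edgeR adjusted p = 0.000561). Row 23872, one of the most abundant rows that fell in the second latest leaf, averaged 4470.2 ± 447 CPM at day 3 and 7077 ± 352 CPM at 2 h in treated plants, against 4267 ± 466 and 4563 ± 519 CPM in controls (SD, n = 3 each). Its log2 fold change was -0.66 (SE 0.20, edgeR adjusted p = 0.0486) there, a call lost in 8 of 13 alternative settings, and -0.60 (SE 0.24, edgeR adjusted p = 0.121) in the latest leaf.

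**Figure D3:**
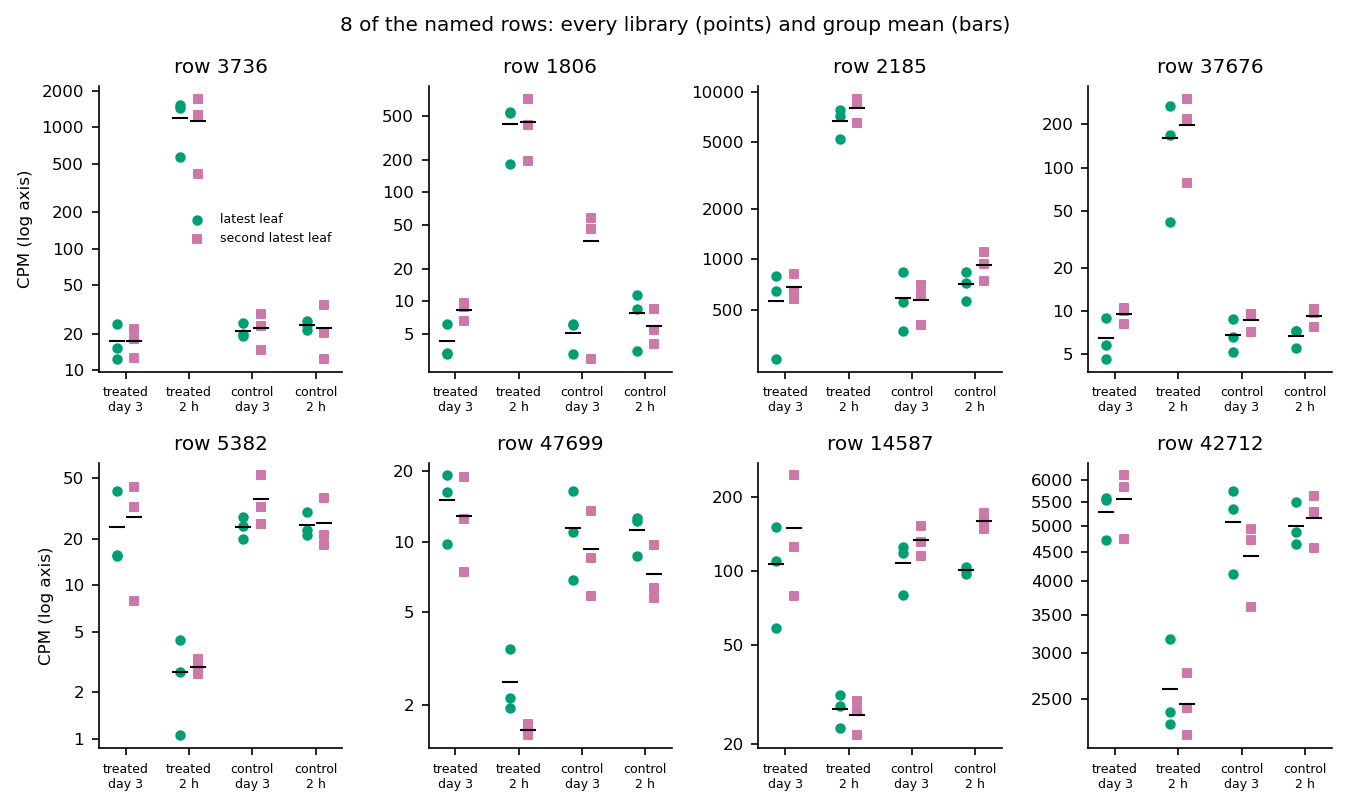
Level in CPM (log axis) of 8 named rows in every library of day 3 and 2 h, treated and control, in both leaf positions; each point is 1 library and bars are group means. Treated 2 h libraries lie above all others in rows 3736, 1806, 2185 and 37676 and below all others in rows 5382, 47699, 14587 and 42712.

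Among the rows that rose, row 5382 changed in both leaf positions. Latest leaves had 41.3, 15.6 and 15.7 CPM at day 3 and 1.05, 2.70 and 4.39 CPM at 2 h in treated plants, against 20.1 to 30.1 CPM in controls (change 3.15 ± 0.47 SE on the log2 scale, edgeR adjusted p = 0.00169). The second latest leaf had 44.0, 7.88 and 32.8 CPM at day 3 and 2.62, 2.95 and 3.29 CPM at 2 h, against 18.3 to 52.3 CPM in controls (change 3.26 ± 0.56 SE on the log2 scale, edgeR adjusted p = 0.00498). The treated 2 h libraries were the lowest of all in both, and day 3 replicate 2 of the second latest leaf stayed below every control.

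Row 47699 had 16.4, 19.2 and 9.75 CPM at day 3 and 1.93, 2.14 and 3.46 CPM at 2 h in treated latest leaves, against 6.84 to 16.6 CPM in controls (change 2.59 ± 0.36 SE on the log2 scale, edgeR adjusted p = 0.00141). In treated second latest leaves it had 18.9, 12.5 and 7.41 CPM at day 3 and 1.53, 1.48 and 1.64 CPM at 2 h (change 3.05 ± 0.41 SE on the log2 scale, edgeR adjusted p = 0.00173). The low 2 h levels were close together and the day 3 levels more spread. Row 14587, at higher levels, had 151, 58.8 and 109 CPM at day 3 and 31.4, 23.2 and 28.4 CPM at 2 h in treated latest leaves, against 79.7 to 125 CPM in controls (change 1.94 ± 0.29 SE on the log2 scale, edgeR adjusted p = 0.00159). In treated second latest leaves it had 244, 79.3 and 125 CPM at day 3 and 29.7, 27.1 and 21.6 CPM at 2 h, against 115 to 171 CPM in controls (change 2.51 ± 0.33 SE on the log2 scale, edgeR adjusted p = 0.00157). In row 14587 replicate 2 was the lowest treated day 3 library in both leaf positions, and in row 47699 it was replicate 3.

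Row 27809 rose in the latest leaf, with 44.3, 28.2 and 25.2 CPM at day 3 and 5.66, 8.05 and 6.50 CPM at 2 h in treated plants, against 13.7 to 40.1 CPM in controls (change 2.27 ± 0.37 SE on the log2 scale, edgeR adjusted p = 0.00247). Its change in the second latest leaf was 1.39 (SE 0.44, edgeR adjusted p = 0.0612). Row 25567 rose in both, by 3.30 (SE 0.62, edgeR adjusted p = 0.00506) in the latest leaf and 2.35 (SE 0.61, edgeR adjusted p = 0.0291) in the second latest leaf. Its controls were uneven, with 12.1, 18.8 and 7.54 CPM at day 3 and 3.97, 2.94 and 6.44 CPM at 2 h in the latest leaf, but 4.68, 3.37 and 5.27 CPM and 8.58, 16.9 and 22.9 CPM in the second latest leaf. In that row the controls of the 2 stages overlapped in neither leaf position, and day 3 controls were the higher in the latest leaf and the lower in the second latest leaf.

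The very largest rises were in rows whose controls also varied widely. Row 55464 led the risers of each leaf position. Latest leaves had 259, 724 and 7.04 CPM at day 3 and 0.233, 6.60 and 4.10 CPM at 2 h in treated plants, against 68.0, 389 and 20.6 CPM and 1196, 288 and 809 CPM in controls (change 6.51 ± 1.64 SE on the log2 scale, edgeR adjusted p = 0.0233). Second latest leaves had 231, 404 and 98.9 CPM at day 3 and 1.09, 3.34 and 2.30 CPM at 2 h, against 20.4 to 533 CPM in controls (change 6.77 ± 1.17 SE on the log2 scale, edgeR adjusted p = 0.00494). The lowest day 3 library of the latest leaf, replicate 3, lay just above the highest 2 h library, and that call was lost in 5 of 14 alternative settings.

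Row 226 in the latest leaf had 10.3, 33.4 and 0.848 CPM at day 3 and 0.0583, 0.0629 and 0.469 CPM at 2 h in treated plants, the last 3 resting on 1, 1 and 8 counts (change 6.17 ± 1.37 SE on the log2 scale, edgeR adjusted p = 0.0126). Its 6 controls had 1.21 to 31.3 CPM, and the call was lost in 2 of 14 alternative settings. In the second latest leaf the treated groups overlapped and the change was 3.30 (SE 1.11, edgeR adjusted p = 0.0766). Row 35812 in the latest leaf had 22.5, 97.5 and 1.44 CPM at day 3 and 0.117, 1.38 and 0.644 CPM at 2 h in treated plants (change 5.84 ± 1.68 SE on the log2 scale, edgeR adjusted p = 0.0409), and the call was lost in 8 of 14 alternative settings. Its day 3 controls had 0, 2.50 and 22.4 CPM, where the count of 0 allows up to 0.260 CPM. In the latest leaf of both rows, treated day 3 replicate 3 lay close to the treated 2 h libraries. The treated change of row 35812 in the second latest leaf was 2.39 (SE 1.19, edgeR adjusted p = 0.222).

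Row 32024 rose in the second latest leaf, with 18.7, 20.9 and 7.82 CPM at day 3 and 0.0729, 0.932 and 0.329 CPM at 2 h in treated plants, against 2.57 to 35.4 CPM in controls (change 5.14 ± 0.83 SE on the log2 scale, edgeR adjusted p = 0.00402). In the latest leaf its treated libraries overlapped (change 2.29 ± 1.00 SE on the log2 scale, edgeR adjusted p = 0.156). Row 19306 likewise rose in the second latest leaf, with 41.7, 27.8 and 57.2 CPM at day 3 and 3.86, 4.27 and 4.77 CPM at 2 h (change 3.30 ± 0.47 SE on the log2 scale, edgeR adjusted p = 0.0022). Controls of that leaf had 53.6, 22.5 and 94.4 CPM at day 3 and 26.5, 21.96 and 16.5 CPM at 2 h, and in the latest leaf the treated change was 0.69 (SE 0.40, edgeR adjusted p = 0.297). Row 55591 rose in both leaf positions, by 2.72 (SE 0.64, edgeR adjusted p = 0.0175) and 2.84 (SE 0.62, edgeR adjusted p = 0.0139), and its highest day 3 library was replicate 2 in both, at 83.2 and 38.5 CPM. These calls were lost in 4 of 14 and 3 of 13 alternative settings.

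Abundant rows rose by smaller factors. Row 42712 had 5577, 4728 and 5534 CPM at day 3 and 2377, 2262 and 3179 CPM at 2 h in treated latest leaves, against 4124 to 5739 CPM in controls (change 1.02 ± 0.20 SE on the log2 scale, edgeR adjusted p = 0.0059). Second latest leaves had 5831, 4738 and 6115 CPM at day 3 and 2414, 2161 and 2775 CPM at 2 h, against 3615 to 5626 CPM in controls (change 1.18 ± 0.21 SE on the log2 scale, edgeR adjusted p = 0.00604). The treated 2 h libraries lay below every control, and those of day 3 within or above the range of the controls. Row 51820 rose by 0.81 (SE 0.21, edgeR adjusted p = 0.0264) in the latest leaf and 0.99 (SE 0.27, edgeR adjusted p = 0.0388) in the second latest leaf, calls lost in 5 of 14 and 5 of 13 alternative settings. Row 49075 rose by 0.81 (SE 0.21, edgeR adjusted p = 0.0258) in the latest leaf, a call lost in 7 of 14. Its change in the second latest leaf was 0.88 (SE 0.32, edgeR adjusted p = 0.0996). Row 43282 rose by 0.89 (SE 0.19, edgeR adjusted p = 0.0132) in the second latest leaf, a call lost in 3 of 13. In the latest leaf the change of row 43282 was 0.81 (SE 0.25, edgeR adjusted p = 0.0515).

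The replicates did not share the change evenly. Of the treated latest leaf libraries, 2 h replicate 3 was the lowest of the 3 treated 2 h libraries in 76.8% of fallers and the highest in 72.1% of risers, so that it lay nearest to day 3 in both. Over all tested rows it was the lowest in 34.6% and the highest in 34.5%. Of those of the second latest leaf, day 3 replicate 2 was the highest of the 3 treated day 3 libraries in 74.5% of fallers and the lowest in 60.4% of risers, nearest to 2 h in both, beside 39.5% and 38.5% over all rows. The spread between replicates was wider at day 3 than at 2 h in treated plants. Over tested rows, log2 CPM had a root mean square SD of 0.487 at day 3 and 0.343 at 2 h in the latest leaf, and 0.520 and 0.365 in the second latest leaf, beside 0.406 and 0.389, and 0.498 and 0.345, in controls.

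The leaf positions were then compared in their treated change, which addresses whether the leaf positions recovered alike. Between them 409 risers were shared, 44.3% of those of the latest leaf and 47.9% of those of the second latest leaf, and 1078 fallers, 69.6% and 71.5%. No row (0) rose in one leaf position and fell in the other. Rows called in one leaf position nearly all had the same sign in the other: 916 of 920 risers (99.6%) and 1538 of 1548 fallers (99.4%) of the latest leaf, and 836 of 845 (98.9%) and 1487 of 1492 (99.7%) of the second latest leaf. Over the 19403 rows tested in both, 79.2% had the same sign. The median log2 fold change in the other leaf position was 0.65 and -0.88 for risers and fallers of the latest leaf, and 0.66 and -0.79 for those of the second latest leaf. The libraries of the leaf positions are distinct, but they may not be independent. Whether leaves came from the same plants is not stated, and the deviations of same-numbered latest and second latest leaf libraries from their group means correlated by -0.0768 to 0.537, over 0.1 in 10 of 12 pairs. The part of such shared deviations in the likeness of the leaf positions was not tested.

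Across the 19403 rows, the treated changes in the latest and second latest leaf correlated with r = 0.781 (Spearman's rho 0.751), and the control changes with r = 0.42 (rho 0.322). These are descriptions over rows, which are not independent replicates and share the annotation, their abundance and the libraries of each leaf position. In the test of the difference of the treated change between leaf positions, fitted over the 24 libraries, edgeR called 0 of 20675 rows; 495 had an unadjusted p under 0.05, and DESeq2 called 0, as did edgeR with a replicate block shared by the leaf positions. Among the 3318 rows called in at least 1 leaf position and tested in both, the absolute difference had a median of 0.18 on the log2 scale with a median SE of 0.28, and 95.7% lay within 1, beside 94.9% of all rows. A miss of the threshold does not show that the leaf positions act alike. The 981 rows called in the latest leaf alone and the 850 called in the second latest leaf alone are therefore not shown to differ. Among them are rows 226, 27809, 35812 and 49075, called in the latest leaf. Rows 32024, 19306, 23872 and 43282, called in the second latest leaf, are also among them.

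**Figure D4:**
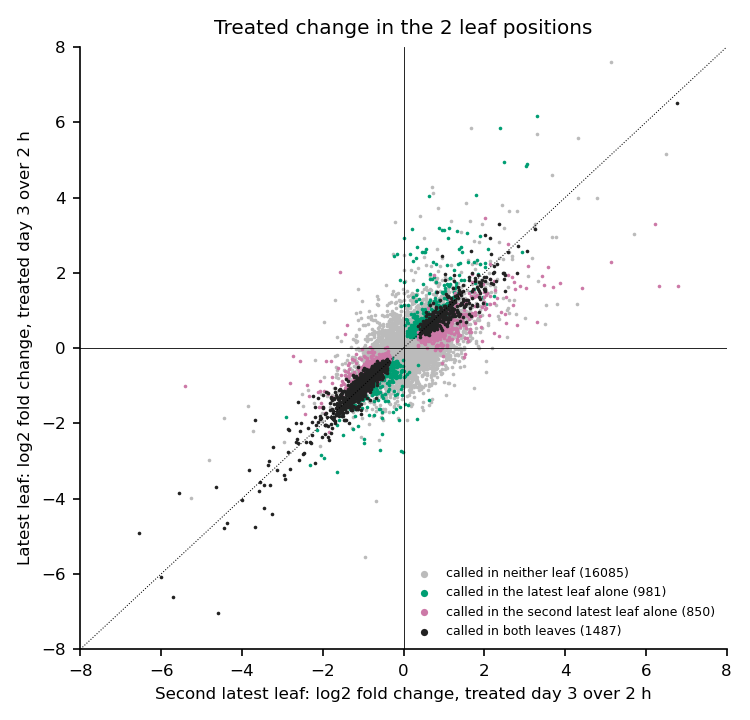
Treated log2 fold change of day 3 over 2 h in the latest leaf and in the second latest leaf for the 19403 rows tested in both (r = 0.781), coloured by the leaf position in which they were called. The 1487 rows called in both lie in the same-sign quadrants, with 0 rows called in opposite directions.

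The other stages of the series show what these rows did before and after, and their libraries took no part in choosing the rows. Among fallers of the latest leaf, the median treated minus control difference on the log2 scale was -0.22 at drought day 0, -0.22 at day 6, 0.41 at day 9 (2 treated libraries) and -0.16 at day 6 of rehydration. The same medians of the second latest leaf were -0.28, 0.01, 0.07 and -0.13. For the risers they were 0.12, -0.01, -0.19 and 0.11 in the latest leaf and 0.19, 0.03, -0.06 and 0.04 in the second latest leaf. At drought day 9 the fallers of the latest leaf were thus higher in treated plants and those of the second latest leaf hardly so, a contrast that was not tested. The controls differed too at that stage: relative to the controls of 2 h and day 3, the fallers of the latest leaf had medians of 0.30 and -0.06 in the 2 treated libraries and -0.23, -0.09 and -0.46 in the 3 controls. In the latest and second latest leaf the fallers stood at -0.11 and -0.14 at day 3 and at 0.71 and 0.90 at 2 h, and the risers at 0.16 and 0.16 at day 3 and at -0.56 and -0.77 at 2 h. The treated libraries of these 2 stages chose the rows, so the extreme at 2 h follows from the choice. Medians over all tested rows stayed between -0.03 and 0.07 at the 6 stages.

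The rows already stood a little apart between the plants at drought day 0, a difference that was not tested. Library medians of latest leaf fallers, relative to the controls of 2 h and day 3, were -0.15, -0.02 and -0.29 in treated plants. They were 0.02, 0.01 and 0.25 in controls. Those of the second latest leaf were -0.19, -0.10 and -0.22, and 0.11, 0.09 and 0.18. Day 3 controls of the latest leaf alone ran from -0.21 to 0.15. Rows are not replicates, so the shares that follow are a description. At drought day 0, 80.8% of the fallers of the latest leaf and 89.6% of those of the second latest leaf were lower in treated than in control plants, beside 50.4% and 51.4% of all rows. Of the risers, 30.2% and 21.2% were lower. At day 6 of rehydration, 76.1% and 70.5% of fallers and 32.7% and 44.1% of risers were lower in treated plants, beside 54.5% and 53.4% of all rows. The offset of the treated plants at day 3, with fallers slightly below and risers slightly above controls, had the sign seen at drought day 0. The treated day 3 libraries helped choose the rows, which favours that sign at day 3, so nothing is read from the match.

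**Figure D5:**
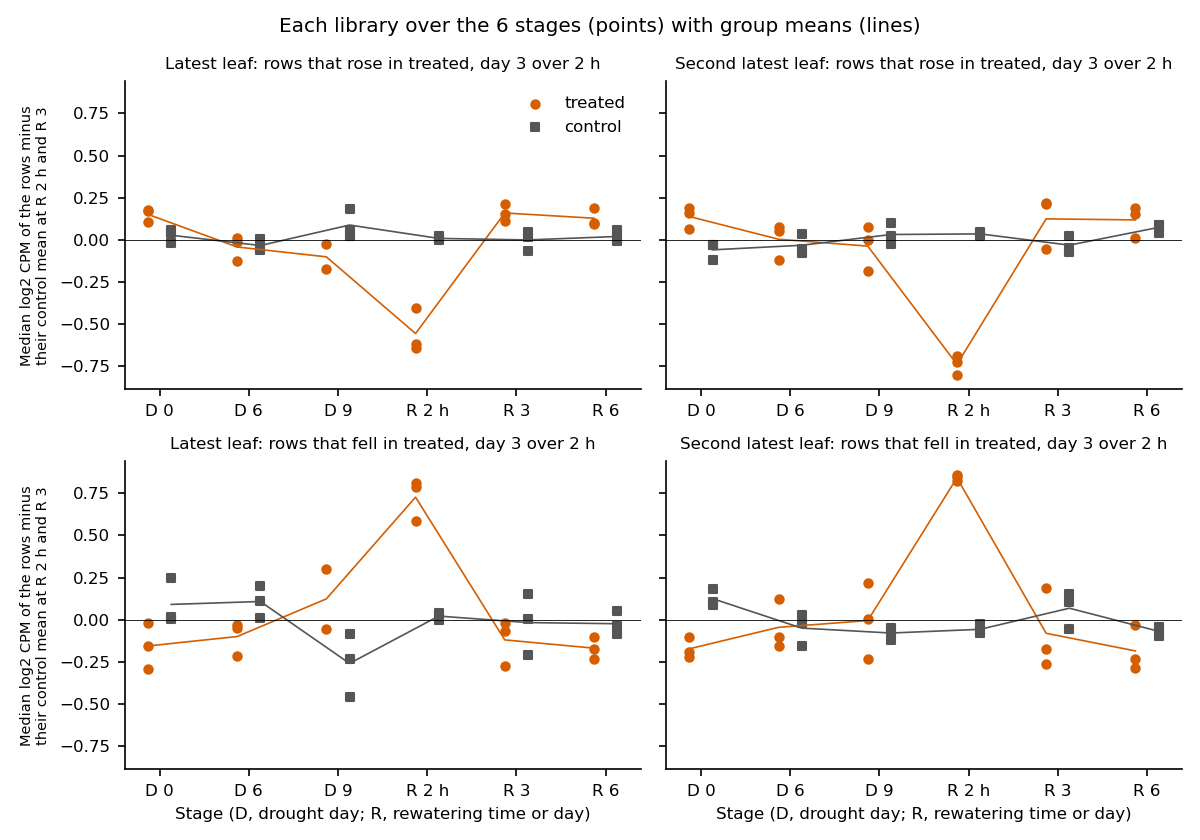
Median log2 CPM of the rows that rose (upper panels) and fell (lower panels) in each treated and control library, relative to their mean in the controls of 2 h and day 3, at the 6 stages in time order; lines join group means. Treated libraries of 2 h (R 2 h) are the lowest for risers and the highest for fallers among the 4 groups of 2 h and day 3, the stages that chose the rows.

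Single rows took different courses to the same 2 h extreme. Row 3736 had in treated latest leaves 13.4 ± 3.06 CPM at drought day 0, 24.5 ± 6.94 at day 6, 1156 ± 522 at 2 h, 17.0 ± 6.12 at day 3 of rehydration (SD, n = 3 each), and at day 6 of rehydration 24.2 CPM with a range of 14.97 to 36.4. Drought day 9 gave 55.1 ± 15.4 CPM in treated latest leaves (n = 2) and 44.0 ± 21.6 CPM in controls (SD, n = 3). The treated level at day 9 was thus not above that of the controls by more than their spread. At drought day 0 controls were the higher, with 17.7 to 20.4 CPM against 11.4 to 16.9 CPM in treated latest leaves. Second latest leaves at drought day 0 had 23.8 to 26.6 CPM in controls and 5.65 to 9.13 CPM in treated plants. In the second latest leaf at drought day 6 the order was the opposite, with 26.2 to 47.2 CPM in treated libraries and 21.0 to 21.5 CPM in controls. These differences were not tested. At day 9 that leaf position had 59.6 ± 8.58 CPM in treated plants and 57.4 ± 9.07 CPM in controls (SD, n = 3 each). Row 6097 was not raised in the drought, with 202 ± 17.6, 177 ± 28.3 and 153 ± 8.70 CPM at days 0, 6 and 9, and stood at 1706 ± 699.9 CPM at 2 h and 181 ± 43.6 CPM at day 3 (SD, n = 3 each except 2 at day 9). In both rows the high level was seen at the 2 h stage and at no other sampled stage.

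Row 2185 moved with the day 9 stage in both treatments and again at 2 h. In the latest leaf it had 1333 ± 273 CPM in treated leaves (n = 2) and 1344 ± 656 CPM in controls (SD, n = 3) at day 9, and 6568 ± 1290.3 and 698 ± 139 CPM at 2 h (SD, n = 3 each). At day 6 of rehydration it had 1001 ± 428 CPM in treated leaves and 595 ± 44.3 CPM in controls (SD, n = 3 each), and in the second latest leaf 1237 ± 374 and 662 ± 162 CPM. Its treated mean was thus higher at day 6 than at day 3 of rehydration, 558 ± 276 CPM in the latest leaf and 682 ± 117 CPM in the second latest leaf, a difference that was not tested.

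Row 5382 instead declined step by step. In treated latest leaves it had 26.4 ± 5.57 CPM at drought day 0, 14.0 ± 4.39 at day 6, 4.83 ± 0.760 at day 9 (n = 2), 2.67 ± 1.65 at 2 h, 23.7 ± 14.1 at day 3 and 29.2 ± 10.9 at day 6 of rehydration (SD, n = 3 otherwise), with control means of 20.2 to 40.1 CPM at these stages. The second latest leaf declined through the same stages to 2 h, with 37.2 ± 6.22, 16.3 ± 4.92, 5.36 ± 1.15, 2.94 ± 0.348, 28.3 ± 18.5 and 25.2 ± 7.80 CPM (SD, n = 3 each). Controls of the second latest leaf had 28.2 ± 8.60 CPM at drought day 6, 14.6 ± 1.36 at day 9 and 25.4 ± 10.0 at 2 h (SD, n = 3 each). They too were thus lower at day 9 than at day 6. A low treated level was already present at drought day 9 in both leaf positions. Rows 47699 and 14587 were low at 2 h without being low in drought. Row 47699 had 169 ± 21.2 CPM in treated latest leaves (n = 2) and 142 ± 31.9 CPM in controls (SD, n = 3) at day 9, and 2.46 ± 0.820 and 10.97 ± 2.10 CPM at 2 h (SD, n = 3 each). Row 14587 had 315 ± 40.6 CPM in treated latest leaves (n = 2) and 242 ± 16.2 CPM in controls (SD, n = 3) at day 9, and 27.1 ± 4.08 and 98.7 ± 3.87 CPM at 2 h (SD, n = 3 each). Of the 3 rows, row 5382 alone was below its controls at day 9 in both leaf positions.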

How the data were processed

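The authors deposited raw read counts, without normalization, in 1 table of 55986 rows and 72 libraries. The submitters' processing notes name STAR, featureCounts 2.0.0 and the build IRGSP-1.0. No source used here gives the strand setting or the handling of multi-mapped reads, so near-identical copies and antisense partners cannot be told apart. Every column matched 1 library name in the labels. In the 24 libraries of day 3 and 2 h, 15078 rows were at 0 throughout. Replicates were compared first: of 24 pairs 0 were identical, with a chi-square per degree of freedom of 12 to 176.

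The tests used edgeR 4.0.16 in R 4.3.3 (filterByExpr with the groups, TMM, glmQLFit and glmQLFTest, 1 mean per group), with 12 libraries per leaf position, or to all 24 for the difference between leaf positions. The whole table was tested with Benjamini-Hochberg adjustment, and rows under 0.05 were called. Log2 fold changes are day 3 over 2 h. The procedure was tested on simulated data. DESeq2 1.42.0, other scaling, no filter, robust dispersion, other sets of libraries, a replicate block and leaving out each replicate were the alternatives. A row is eligible for naming if called, at 10 CPM or more in the higher group and without overlap of the treated libraries. Named are, per leaf position and direction, the 4 largest changes, the 3 largest with the difference from controls also called and controls within 0.5 of 0, the 3 most abundant, and the 3 largest in both leaf positions, 27 rows in all; a further part, for called differences between leaf positions, named 0 rows. Values at other stages are CPM scaled over all libraries of the leaf position, leaving out treated drought day 9 replicate 2 of the latest leaf, which held 1755 counts. The comparison, lists and naming rule were chosen with earlier results of these data known.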

Additional observations from a re-analysis of the deposited data

How the results depend on the processing

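The counts of rows called in treated plants were moved by over 1.5 times when only the 6 libraries compared were fitted, to 1503 in the latest and 1028 in the second latest leaf, and by all libraries of the second latest leaf, to 4184. Leaving out each treated library gave 1140 to 2477 and 1006 to 4189. For the difference from controls, counts in the latest and second latest leaf were 1107 and 1681 with no filter on low counts and 1369 and 2199 by DESeq2. All libraries of the leaf gave 1338 with and 1424 without the near-empty library in the latest leaf, and 2980 in the second latest leaf. Leaving out 1 library gave 14 to 888 and 128 to 3228. For controls the 0 of the latest leaf became 3 with no filter, 7 by DESeq2 and 1 with robust dispersion, and 0 when any 1 control was left out. That of the second latest leaf became 445 with no filter, 281 by DESeq2 and 332 with all libraries, and 0 to 506 when 1 control was left out. The cause was not tested. The count of 0 for the difference between leaf positions was 0 under every alternative run. Relative log expression factors kept all of these counts within 1.5 times.

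Replicate numbers did not pair the treated stages: same-numbered day 3 and 2 h libraries correlated by -0.294 to 0.147 over 6 pairs. With the replicate block, 178 rows instead of 650 were called for the difference from controls in the latest leaf, and 830 instead of 1052 in the second latest leaf; the treated counts were 1970 and 2222, and the block changed no other count by over 1.5 times. Leaving treated day 3 replicate 2 out of both leaf positions, chosen after seeing the data, gave 600 shared risers and 1273 shared fallers. Over 513 checks of named rows, 463 kept direction and call, 50 lost the call and 0 changed sign. With 3 libraries per group the spread between libraries and the depth limit which changes can be called.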

Other observations

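Rows that changed alike lay next to each other in the count table more often than tested rows in general. The next row above or below was called in the same direction for 9.42% of risers and 15.7% of fallers of the latest leaf, where 5.01% and 9.08% of all tested rows had a riser or a faller as a neighbour. In the second latest leaf the shares were 8.90% and 14.8%, beside 4.57% and 8.71% of all tested rows. Whether the order of rows follows the genome is not given in the sources used here, and the cause was not tested. Among the rows that rose, 1 in the latest leaf and 3 in the second latest leaf had 0 counts in all 3 treated 2 h libraries. Of all tested rows, 2 of 19588 and 8 of 20458 did.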
